A study of Mus musculus with 25 samples.

Results

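Cytosolic ribosomal protein genes encode the proteins of the ribosome that translates messenger RNAs of the cell nucleus. Members were the rows of the 2 RNA count tables whose mouse symbol is Rpl or Rps with a number and at most a short suffix (a, x, y or l), together with Rpsa, Rplp0, Rplp1 and Rplp2, with names marked as pseudogenes left out. The mESC table held 87 of them among 35662 genes, 35 of the small and 52 of the large ribosomal subunit. The embryo table held 83 among 24062 genes, and all 83 were also in the mESC table. Rpl32l, Rpl6l, Rps3a2 and Rps3a3 were in the mESC table alone. The RefSeq annotation of GRCm38.p6 lists Rps4l, Rpl6l, Rps3a2 and Rps3a3 as pseudogenes although their names do not say so. The members lay on 19 chromosomes, 4 of them on X, and their gene bodies spanned a median of 3139 bp (592 to 11774 bp).

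The study measured RNA in v6.5 mouse embryonic stem cells (mESCs), a line from a hybrid of 2 laboratory strains, of which 3 libraries were wild type (WT) and 2 carried a knockout (KO) of Dot1L. Dot1L adds methyl groups to histone H3 at lysine 79, and the marks H3K79me2 and H3K79me3 (2 and 3 methyl groups) were mapped by ChIP in 2 WT and 2 KO libraries each. RNA was also measured in 8-cell embryos from B6D2F1 females and Cast/EiJ males, collected 56 hours after fertilization in pools of 30 to 35, with 2 libraries given DMSO (the solvent) and 2 given SGC0946, a small-molecule inhibitor of Dot1L. All mESC groups shared the v6.5 background and all embryo groups the same cross. The labels do not say how many KO clones there were, which part of Dot1l was deleted, or the sex of the cells. They also do not say whether replicates came from separate cultures or days, so p-values measure the spread between these samples, which may be technical.

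A ribosome holds 1 copy of almost every ribosomal protein, and cells make the proteins in matched amounts from genes scattered over the genome. Their messenger RNAs are among the most abundant of growing cells, and most begin with a C followed by a run of pyrimidines at the transcription start, the terminal oligopyrimidine (TOP) motif through which mTOR signalling controls their translation. Their genes are short, carry introns that often hold small nucleolar RNA (snoRNA) genes, and have left many processed pseudogenes in mammalian genomes. H3K79 methylation is a mark of the transcribed part of active genes, laid down downstream of the start.

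The start sites below were chosen to show the TOP motif in 5 members of typical autosomal genes, and to show the starts of the 6 members that fell most in KO mESCs. Each line gives 30 bases before the start listed by RefSeq (GRCm38.p6) and 15 bases from it, 5′ to 3′ on the transcribed strand, and capitals mark a tract of C followed by at least 5 bases C or T that began within 20 bases of the listed start.
Rps15a (chr7:118116133-118116177, minus strand): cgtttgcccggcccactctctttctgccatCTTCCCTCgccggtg
Rpl38 (chr11:114668550-114668594, plus strand): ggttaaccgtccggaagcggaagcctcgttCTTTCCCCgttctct
Rps6 (chr4:86857353-86857397, minus strand): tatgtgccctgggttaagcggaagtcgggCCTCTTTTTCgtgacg
Rpl18 (chr7:45718041-45718085, plus strand): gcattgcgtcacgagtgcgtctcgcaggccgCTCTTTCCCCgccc
Rpl13a (chr7:45128731-45128775, minus strand): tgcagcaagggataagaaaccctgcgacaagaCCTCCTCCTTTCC
Rpl10 (chrX:74270786-74270830, plus strand): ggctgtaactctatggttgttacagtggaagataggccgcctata
Rpl36a (chrX:134585624-134585668, plus strand): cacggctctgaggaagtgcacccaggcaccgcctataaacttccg
Rpl39 (chrX:37085208-37085252, minus strand): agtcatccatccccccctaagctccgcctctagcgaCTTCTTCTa
Rps4x (chrX:102189377-102189421, minus strand): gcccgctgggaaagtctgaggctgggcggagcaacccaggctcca
Rpl10l (chr12:66284387-66284431, minus strand): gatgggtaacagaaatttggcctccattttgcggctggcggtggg
Rpl39l (chr16:10170198-10170242, plus strand): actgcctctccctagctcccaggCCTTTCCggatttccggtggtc

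In Rps15a and Rpl38 the tract began at the listed start itself. Rpl10, Rpl36a, Rps4x and Rpl10l had no such tract within the searched distance, which says only that these letters are not near the start that RefSeq lists. Of 63 members with a listed promoter, 41 (65.1%) held the tract, against 34.8% of 27025 genes and 36.3% of 2927 other genes in the top 20% of tested genes by mESC expression. In the window from 250 bases before to 50 after the listed start, searched on both strands, the core CCGGAAG bound by ETS-family factors was found in 26 of the 63 members (41.3%), against 9.93% of all genes and 21.7% of the other highly expressed genes. AANATGGC, the core bound by Yy1, was found in 11 members (17.5%, against 6.96% and 14.0%). TATAAA was found in 7 members (11.1%, against 15.7% and 8.27%). The tract shared bases with a CCGGAAG match in 1 member and with an AANATGGC match in 1 member.

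RNA library totals were 26856007 to 33750361 estimated counts in mESCs and 24950199 to 32479590 counts in embryos, so that counting error was small for nearly all members. Levels below are CPM, counts brought to a common library total with factors from the trimmed mean of M values (TMM). Dot1l itself was at 104, 96.8 and 99.1 CPM in WT and at 81.4 and 71.6 CPM in KO mESCs, so its transcript was still present, and this level does not check a deletion whose position is not stated. The marks do: KO peak lists touched 10 to 149 of 18589 tested genes with a position, and no member. Summed mESC markers were at 2942 to 2993 CPM in WT and 2544 to 2693 CPM in KO, none at 0. Of these 7 markers, Nanog (−1.02 on the log2 scale), Zfp42 (−0.46) and Pou5f1 (−0.21) were called lower and Tfcp2l1 (0.46) higher. Summed fibroblast markers, which could come from feeder cells, were at 168 to 214 CPM in WT and 216 to 270 CPM in KO, with 4 of 8 tested called higher, and cumulus-cell markers at 59.2 to 74.7 CPM in WT and 62.5 to 67.4 CPM in KO. Cleavage-stage markers summed to 1218 to 1230.0 CPM in WT and 970.0 to 1027 CPM in KO. Pou5f1 (WT mean 685 CPM) and Zfp42 (413 CPM), which are also mESC markers, were the highest of them. Of these 8 markers 4 were called lower, while Klf17 (1.86), Cdx2 (1.14) and Tead4 (0.38) were called higher, Klf17 and Cdx2 from under 1 CPM. Over all genes tested, 21.4% were called lower and 22.3% higher. In embryos, summed mESC markers were at 1628 to 1753 CPM with DMSO and 1055 to 1251 CPM with SGC0946. There, summed cleavage-stage markers were at 2772 to 3092 CPM with DMSO and 2094 to 2662 CPM with SGC0946, while fibroblast markers were at most 10.4 CPM and cumulus-cell markers at most 1.72 CPM, with 4 to 6 markers of each of these lists at 0 in a library. The part of these marker differences in the results below was not tested. In bulk samples, fewer cells of a type and less RNA per cell cannot be told apart.

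In KO mESCs, most ribosomal protein genes were slightly lower than in WT, and 6 were much lower, at 45.3 to 55.1% of the WT mean. Of 86 members tested, 48 fell, 1 rose and 37 did not pass the test (edgeR's quasi-likelihood test, Benjamini-Hochberg adjusted p under 0.05). Over all 19561 genes tested, 43.7% were called, 21.4% lower and 22.3% higher, so the 48 of 86 members that fell stand beside that 21.4%. The log2 fold change (KO over WT) was negative in 78 members, with a median of −0.13 against 0.00 over all genes tested. The 35 small-subunit members had 22 falls and no rise, with a median of −0.15. The 51 large-subunit members tested had 26 falls and 1 rise, with a median of −0.13. Most of these differences were small, 76 of the 86 being under 0.25 on the log2 scale in either direction.

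The small differences depended on how libraries were scaled. With upper-quartile scaling, 33 members passed the test, 28 lower and 5 higher, where 16.2% of all genes were called lower and 28.1% higher, and the members' median was −0.06 while that of all genes tested was 0.07. The distance between the members' median and that of all genes was −0.13 under both scalings. A change of scaling moves all genes by nearly the same amount, so this distance could hardly differ and does not test the falls. Summed over all members, ribosomal protein genes took 4.49 to 4.58% of all counts in WT and 4.40 and 4.44% in KO libraries. The groups did not overlap, although the step was small. This sum includes the X-linked members, which took 6.10 to 6.23% of the members' counts in WT and 3.63 and 3.67% in KO. The step thus does not show a fall in the share of the autosomal members. These are shares of raw counts, before TMM scaling. The TMM factors were 0.965 to 0.9745 in WT and 1.061 and 1.03 in KO libraries. A higher factor gives a lower CPM for the same share of counts, so the small falls in CPM rest in part on these factors.

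**Figure D1:**
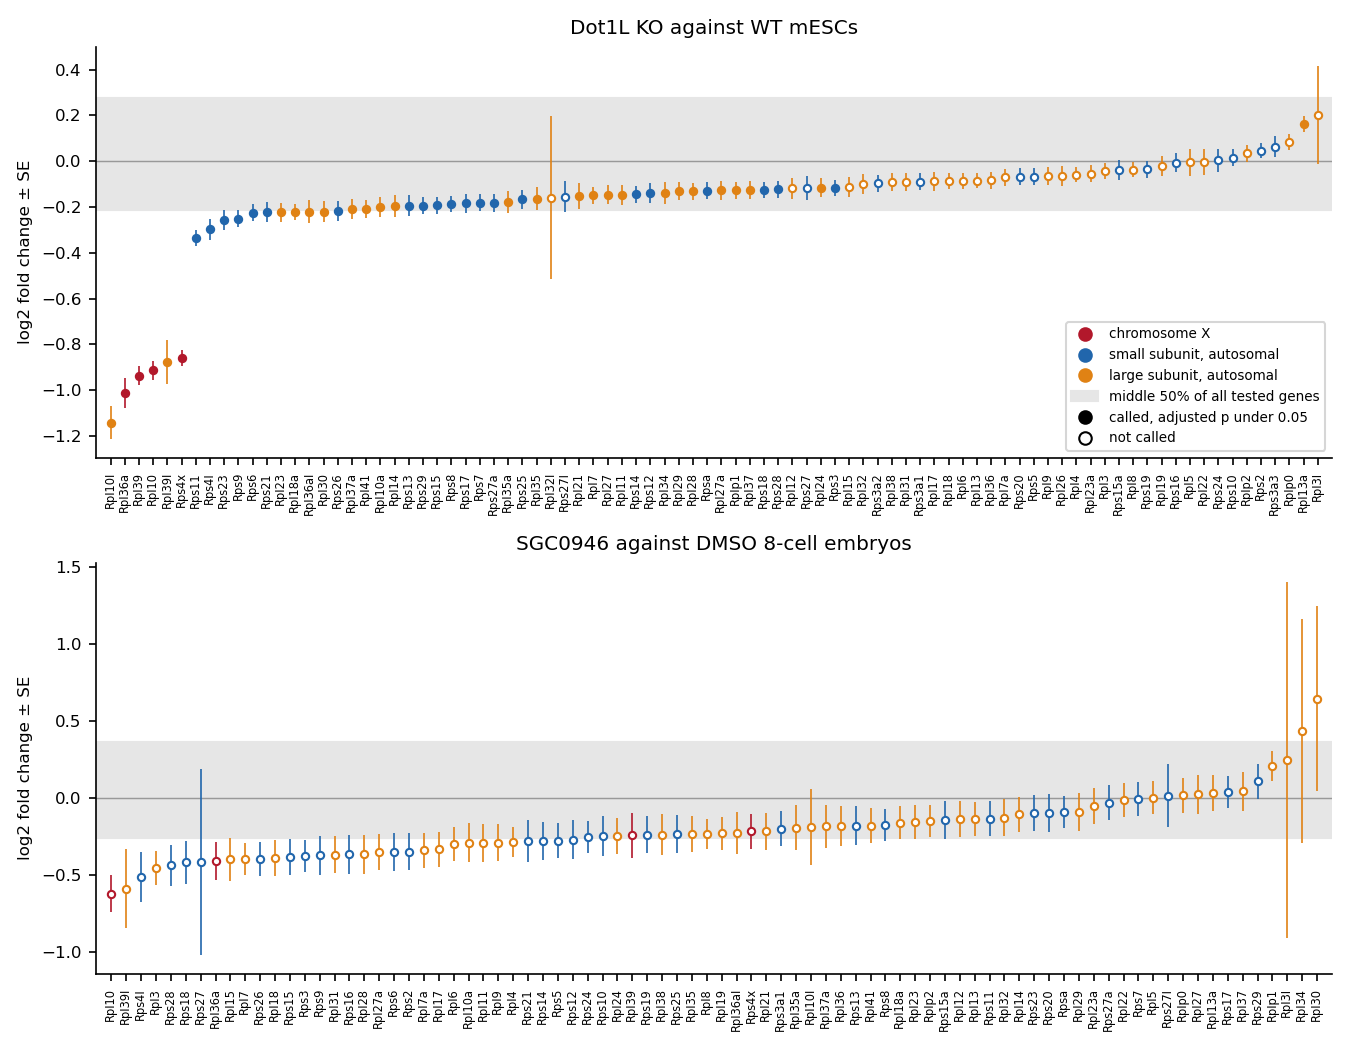
Log2 fold change (KO over WT mESCs, TMM scaling) of the 86 tested members in order of size, with bars for the standard error of the fit. Filled points passed the test; red points are the 4 X-linked members, blue and orange points the autosomal small- and large-subunit members, and the grey band spans the middle 50% of all genes tested. The 6 members at the low end lie below −0.5 and 68 of the 86 between −0.25 and 0.

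The members with the largest falls were Rpl10l, Rpl36a, Rpl39, Rpl10, Rpl39l and Rps4x. They were the only members at a log2 fold change of −0.5 or lower, and all 6 were called. These 6 of 86 members tested stand beside 7.73% of all genes tested that were called at that size. Falls of this size were thus no more frequent among members than among all genes. Of the 6 members, 4 are the X-linked ones and the other 2 are autosomal copies of X-linked members. Over chromosome X as a whole, 60.4% of the 737 genes tested were called lower, and the median over the 605 X-linked genes at 1 CPM or more was −0.66. The X-linked members thus moved with most of their chromosome. Whether the 2 groups differ in sex-chromosome content is not given by the labels and was not tested.

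Rpl10, a large-subunit protein whose loading is a late step of subunit maturation, was at 314, 322 and 314 CPM in WT and at 163 and 173 CPM in KO. The KO mean was 53.1% of the WT mean, and no library overlapped (log2 fold change −0.91, SE 0.04, edgeR adjusted p = 3.33e-09). Rpl10 lies at X:74270816-74273135.

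Rpl36a, a small basic protein of the large subunit (X:134585654-134588062), was at 395, 409 and 387 CPM in WT and at 178 and 216 CPM in KO. It fell by 1.01 on the log2 scale (SE 0.07, edgeR adjusted p = 7.86e-08), and its KO libraries differed from each other more than its WT libraries did. Rpl39, among the smallest proteins of the ribosome, which lines its exit tunnel (X:37082518-37085222), was at 577, 608 and 576 CPM in WT and at 302 and 312 CPM in KO. The groups were far apart (log2 fold change −0.94, SE 0.04, edgeR adjusted p = 2.23e-09).

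Rps4x, the X-linked form of a small-subunit protein (X:102184941-102189391), was at 1566, 1616 and 1570.3 CPM in WT and at 863 and 882 CPM in KO. It fell by 0.86 on the log2 scale (SE 0.04, edgeR adjusted p = 1.31e-09), and replicates lay close together in both groups. Together the 4 X-linked members took 6.10 to 6.23% of the counts of all members in WT and 3.63 and 3.67% in KO.

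Several members are copies named after another member, and many such copies are best known from testis, where X-linked genes are silenced during meiosis. Rpl10l, the autosomal copy of Rpl10 (12:66283379-66284401), was at 41.9, 46.8 and 44.9 CPM in WT and at 18.8 and 21.6 CPM in KO. It had the largest fall of all members (log2 fold change −1.14, SE 0.07, edgeR adjusted p = 5.14e-08). Set against its parent, Rpl10l had 13.3 to 14.6 CPM per 100 CPM of Rpl10 in WT and 11.5 and 12.5 in KO, so this ratio was lower in both KO libraries than in any WT library. The difference between the 2 falls was not tested.

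Rpl39l, the autosomal copy of Rpl39 (16:10170197-10174911), was at 13.7, 14.0 and 12.8 CPM in WT and at 6.81 and 7.91 CPM in KO. It fell by 0.88 on the log2 scale (SE 0.10, edgeR adjusted p = 8.76e-06). Its ratio to Rpl39 overlapped between the groups, at 2.23 to 2.38 per 100 in WT and 2.26 and 2.54 in KO. Copy and parent share much sequence, and these are estimated counts, for which a model can divide reads between genes. The estimates for Rpl10l and Rpl39l were whole numbers in every library, while those for Rpl10 and Rpl39 were not. Whether reads were divided between copy and parent was not tested, so how far each fell is uncertain in both pairs.

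Rpl36al and Rps4l, copies of the other X-linked members, changed far less than their parents. Rpl36al (12:69182734-69184067) was at 155, 163 and 154 CPM in WT and at 128 and 142 CPM in KO (log2 fold change −0.22, SE 0.05, edgeR adjusted p = 0.00362). Per 100 CPM of Rpl36a it stood at 39.3 to 39.9 in WT and at 72.2 and 65.6 in KO. Rps4l, a transcribed pseudogene within Tmtc1 (6:148354656-148355596), was at 211, 202 and 202 CPM in WT and at 160.0 and 174 CPM in KO (log2 fold change −0.30, SE 0.05, edgeR adjusted p = 0.000188). Its ratio to Rps4x went from 12.5 to 13.4 per 100 in WT to 18.5 and 19.7 in KO, again with no overlap.

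**Figure D2:**
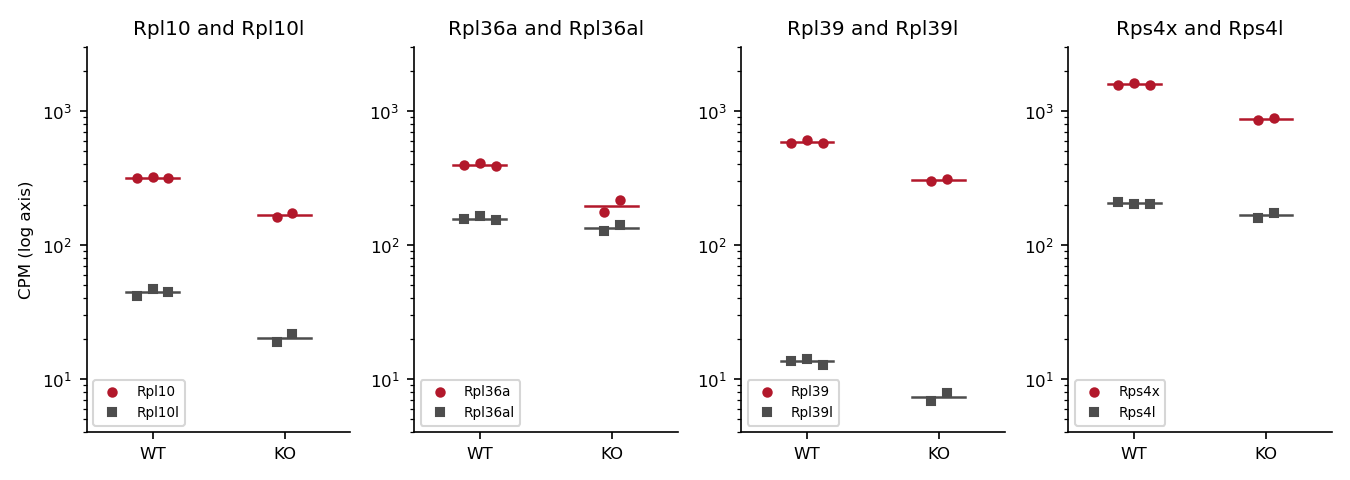
CPM per library (log axis) of the 4 X-linked members (red circles) and of the autosomal copy of each (grey squares) in the 3 WT and 2 KO mESC libraries, with lines for group means. Rpl10l and Rpl39l fell beside their parents, while Rpl36al and Rps4l changed less than theirs.

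Copies of autosomal members did not pass the test. Rps27l, a copy of Rps27 known as a target of p53, was at 143, 163 and 148 CPM in WT and at 126 and 147 CPM in KO, with overlapping groups (log2 fold change −0.16, SE 0.07, edgeR adjusted p = 0.0785). Rps27 itself was at 295, 309 and 295 CPM in WT and 258 and 294 CPM in KO (−0.12, adjusted p = 0.0846 by edgeR). Rpl3l, the copy of Rpl3 known from striated muscle, was between 1.34 and 1.81 CPM in WT and at 1.72 and 1.79 CPM in KO, while Rpl3 was at 895, 903 and 920.2 CPM in WT and 890.3 and 869 CPM in KO. Rpl32l was at most 0.626 CPM and Rpl6l had 0 to 5 counts per library, too few for a test. Rpl32 (−0.10) and Rpl6 (−0.09) did not pass the test either. The annotated pseudogenes Rps3a2 (−0.10, edgeR adjusted p = 0.0563) and Rps3a3 (0.06, edgeR adjusted p = 0.294), which are named after Rps3a, did not pass either.

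Rpl13a was the only member called higher. It encodes a large-subunit protein also known from translational control in inflammation, and its introns hold Snord32a, Snord33, Snord34 and Snord35a, snoRNAs that guide methylation of ribosomal RNA. Its level was 804, 834 and 824 CPM in WT and 914 and 922 CPM in KO (log2 fold change 0.16, SE 0.03, edgeR adjusted p = 0.00215), with no overlap. In the annotation, 30 members hold 59 snoRNA genes and 25 members overlap another annotated gene, and reads of such genes cannot be told from those of the member by these tables.

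The ribosomal stalk recruits the factors that drive elongation, and it is built from Rplp0 as its base and dimers of Rplp1 and Rplp2. Rplp0 was at 821, 825 and 812 CPM in WT and at 862 and 876 CPM in KO, higher in both KO libraries but short of the threshold (log2 fold change 0.08, SE 0.03, edgeR adjusted p = 0.0605). Rplp1 was at 474, 463 and 472 CPM in WT and at 427 and 433 CPM in KO, a fall of 0.13 on the log2 scale (SE 0.04, edgeR adjusted p = 0.0117). Rplp2 overlapped between the groups, at 279, 288 and 280.0 CPM in WT and 293 and 285 CPM in KO (edgeR adjusted p = 0.51). With upper-quartile scaling Rplp0 and Rplp2 were called higher (0.15 and 0.10) and Rplp1 was not called. Rpsa, a small-subunit protein also known as a laminin receptor, was at 1373, 1459 and 1388 CPM in WT and 1273 and 1301 CPM in KO (−0.13, edgeR adjusted p = 0.0132), a call that was also lost under upper-quartile scaling.

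Members known from ribosome stress and inherited anaemia had small differences, of which those of Rpl11, Rps26 and Rps14 passed the test. Rpl5 and Rpl11 form with the smallest ribosomal RNA of the large subunit the particle that binds Mdm2 and so stabilises p53. Rpl5 overlapped between the groups, at 157, 167 and 159 CPM in WT and 148 and 174 CPM in KO (edgeR adjusted p = 0.955). Rpl11 fell by 0.15 on the log2 scale, from 338, 359 and 357 CPM to 305 and 329 CPM (SE 0.04, edgeR adjusted p = 0.0177), and it was not called under upper-quartile scaling. Of the small-subunit genes mutated in Diamond-Blackfan anaemia, Rps26 fell, from 603, 620.1 and 599 CPM in WT to 500.3 and 545 CPM in KO (−0.22, SE 0.04, edgeR adjusted p = 0.00114). Rps19 overlapped, at 358, 364 and 369.8 CPM in WT and 348 and 363 CPM in KO (edgeR adjusted p = 0.487). Rps24 overlapped too, at 1052, 1123 and 1063 CPM in WT and 1015 and 1149.9 CPM in KO (edgeR adjusted p = 0.956), and without KO replicate 2 it was called lower (−0.09, edgeR adjusted p = 0.0496). Rps14, whose loss of a copy underlies the anaemia of a human myelodysplastic syndrome, fell from 622, 642 and 641 CPM to 563 and 586 CPM (−0.15, SE 0.04, edgeR adjusted p = 0.00656), again not called under upper-quartile scaling.

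The counts of some members rest on how reads were divided between a gene and its processed pseudogenes. In the mESC table the rows named as pseudogenes of Rpl10 held 389% of the counts of Rpl10 itself. Those of Rps13 held 105.7% of the member's counts, those of Rpl3 64.7% and those of Rps7 55.9%. For Rpl36a the share was 29.5%. With pseudogene rows added to each member, 50 members were called, where 43.9% of all genes tested were called. Without them it was 49, where 43.7% of all genes were called. Rpl10 and Rps13 were the members with the highest such shares.

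Other parts of the translation machinery had more falls than rises in KO mESCs, where 21.4% of all genes tested were called lower and 22.3% higher. These lists were not counted under upper-quartile scaling. Of 34 initiation factors, 15 fell and 2 rose, with a median of −0.09. The largest falls among them were of X-linked genes, Eif2s3x (−0.90, edgeR adjusted p = 2.76e-09) and Eif1ax (−0.76), followed by the autosomal Eif2b5 (−0.44). Of 9 elongation and termination factors 5 fell and none rose, among them Eef1a1, Eef1b2 and Eef2, whose falls were 0.16, 0.16 and 0.15 on the log2 scale.

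Of 61 ribosome assembly factors 35 fell and 1 rose, with a median of −0.14. Its 3 largest falls were X-linked, in Dkc1, the pseudouridine synthase of snoRNA particles (−1.04), Utp14a (−0.71) and Las1l (−0.57). RNA polymerase I, which makes ribosomal RNA, had 9 falls and 2 rises among 14 subunits and factors (median −0.19), with Cd3eap at −0.43, Polr1a at −0.33 and Polr1h higher by 0.39. Among 11 other TOP mRNAs 8 fell and none rose (median −0.16), led by Hnrnpa1 (−0.36) and Npm1 (−0.32). The lists overlap: of these falls, those of Eef1a1, Eef1b2, Eef1g and Eef2 were also counted with the elongation factors and that of Npm1 with the assembly factors, so Hnrnpa1, Naca and Btf3 are the ones not counted before. Of 6 ribosomal proteins that the name rule leaves out 4 fell, among them Rpl7l1 (−0.36), Rpl22l1 (−0.28) and Fau (−0.19). Mitochondrial ribosomal proteins, which serve another ribosome, went both ways, with 19 falls and 8 rises among 78 (median −0.05). Their share of falls was near the 21.4% of all genes tested. Examples were Mrpl17 at −0.62 and Mrpl23 at 0.49.

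In WT mESCs nearly all ribosomal protein genes carried both H3K79 marks over their bodies. A peak of H3K79me2 touched the gene body in both WT lists in 80 of 87 members (92.0%), against 44.3% of 18589 tested genes. For H3K79me3 the count was 78 of 87 (89.7%), against 11.2% of tested genes. Members are highly expressed, 82 of the 86 tested lying in the top 20% of tested genes. Within that top 20% H3K79me2 was found on 97.6% of members and 94.3% of other genes, and on 83.2% of the other genes no longer than the longest member. H3K79me3 was found there on 95.1% of members, against 34.4% of the other genes and 44.0% of those of limited length. These genes were not matched for level within the top 20%, and H3K79me3 was found on 8.98% of the next 20% of tested genes by expression against 35.7% of the top 20%.

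Each WT library has a peak list of its own from the authors, and the second H3K79me3 list was the shorter one, touching 11.6% of tested genes against 26.8% in the first. Peaks covered a median of 78.2 and 73.2% of the body of marked members in the 2 WT lists for H3K79me2, and 50.0 and 40.3% for H3K79me3. Other marked genes had medians of 21.8 and 19.5% for H3K79me2 and 6.2 and 2.9% for H3K79me3, but their bodies were longer, with medians of 24.91 kb (H3K79me2) and 28.59 kb (H3K79me3) against 3.17 kb and 3.15 kb for marked members. The authors' fold enrichment at the highest peak of a marked member had a median of 6.6 and 6.56 for H3K79me2, against 5.71 and 5.39 for other marked genes. For H3K79me3 it was 7.22 and 6.59, against 5.24 and 4.73.

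The marks began downstream of the start. At the listed start 0% of the members lay in a peak of either mark in either WT list. At 500 bp downstream H3K79me2 covered 90.48% of the 63 members in both WT lists, against 54.53 and 49.47% of the other highly expressed genes. At 3000 bp it covered 38.1 and 30.16% of members, against 72.46 and 69.22% of the others, a distance beyond the end of many members. H3K79me3 covered 90.48 and 87.3% of members at 500 bp, against 26.38 and 10.97% of the others.

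The members without H3K79me2 in both lists were Rpl10l, Rpl32l, Rpl39l, Rpl3l, Rpl6l, Rps3a2 and Rps3a3, all copies or annotated pseudogenes. Rpl10l had 1 H3K79me3 peak in the first WT list, covering 1.96% of its body at a fold enrichment of 2.88, and none in the second. For H3K79me3, Rpl36 and Rps20 were also missing from the second list, with 5.08-fold and 4.80-fold peaks in the first. Rps10, a small-subunit protein that is ubiquitinated when ribosomes collide, had the highest H3K79me2 enrichment by the mean of the 2 lists, at 14.72-fold in the first and 9.67-fold in the second, followed by Rps14 (10.37 and 12.55-fold) and Rpl22 (10.21 and 11.22-fold), a protein that also binds viral and cellular RNAs. For H3K79me3, Rps10 (11.41 and 12.73-fold), Rpl31 (13.10 and 9.80-fold) and Rpl5 (11.57 and 11.17-fold) stood highest by the same mean. The RNA of none of these passed the test in KO cells apart from Rps14. Rps10 was at 294, 289 and 298 CPM in WT and 295 and 298 CPM in KO (edgeR adjusted p = 0.791). Rpl22 overlapped as well, at 285, 321 and 295 CPM in WT and 285 and 314 CPM in KO (edgeR adjusted p = 0.969), and Rpl31 missed the threshold at 383, 379 and 384 CPM in WT and 349 and 369 CPM in KO (edgeR adjusted p = 0.0797).

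All 4 X-linked members carried both marks, at levels inside the range of the others. Rpl10 had H3K79me2 at 5.14 and 4.65-fold, Rpl36a at 4.27 and 4.24-fold, Rpl39 at 7.96 and 7.56-fold and Rps4x at 6.73 and 3.95-fold in the 2 WT lists. Rpl10l and Rpl39l, whose RNA fell as far, had no H3K79me2 peak. The log2 fold change in KO of the 80 marked members had a median of −0.13 and ran from −1.01 to 0.16. The 6 tested unmarked members had a median of −0.13 as well. They stood at −1.14 (Rpl10l), −0.88 (Rpl39l), −0.16 (Rpl32l), −0.10 (Rps3a2), 0.06 (Rps3a3) and 0.20 (Rpl3l), with Rpl32l and Rpl3l at under 2 CPM. Over all tested genes with a position the median was −0.05 in the 8240 with H3K79me2 and 0.11 in the 10349 without. These genes were not matched for expression, and H3K79me2 was on 3.31% of the lowest and 94.4% of the highest 20% by expression.

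**Figure D3:**
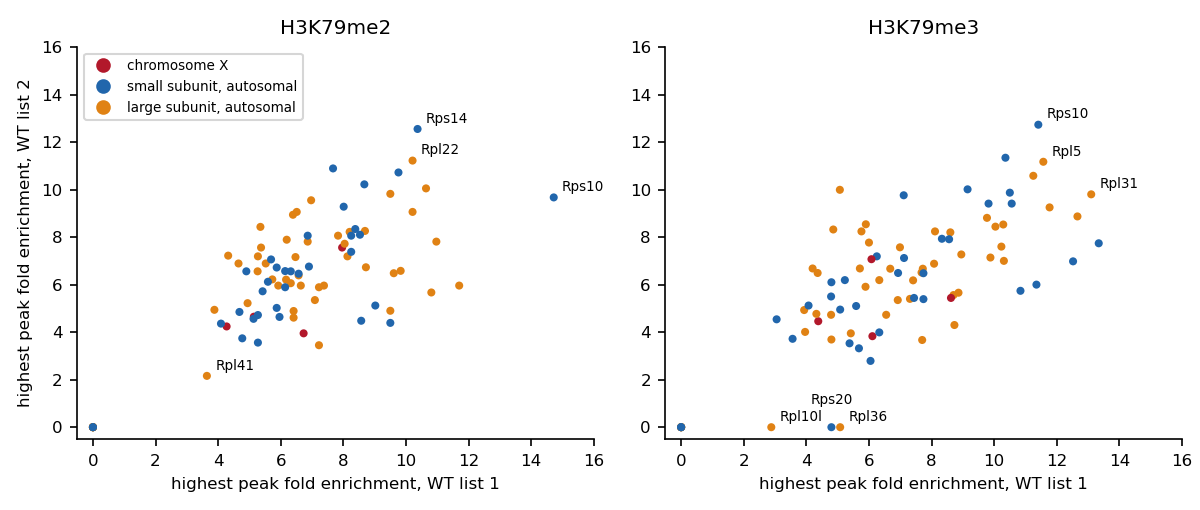
Fold enrichment given by the authors for the highest peak over each member in WT list 1 (x axis) and WT list 2 (y axis), for H3K79me2 and H3K79me3, with 1 point a member coloured by chromosome X and subunit and members without a peak drawn at 0. Medians over the marked members are 6.56 to 7.22 in the 4 lists, and Rps10 stands near the top for both marks.

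In embryos given SGC0946 no ribosomal protein gene passed the test, although most were lower than with DMSO. The edgeR test called 0 of the 82 members tested and 0% of all 14351 genes. At an unadjusted p under 0.05 there were 32 members, against 8.15% of all genes. DESeq2 called 6 members and limma-voom 3, all lower, where these tools called 0.878% and 0.383% of all genes. Without SGC0946 replicate 2 edgeR called 9 members, all lower (Rpl3, Rpl10, Rps4l, Rpl7, Rps6, Rps9, Rps3, Rps18 and Rps26), where 1.42% of all genes were called lower. Without SGC0946 replicate 1 it called Rpl10 alone, where 0.0978% were called lower. Each of these fits has 1 SGC0946 library, which is assumed to vary as the DMSO libraries do. The log2 fold change (SGC0946 over DMSO) was negative in 70 members, with a median of −0.23 against 0.01 over all genes tested. In 57 members both SGC0946 libraries were below both DMSO libraries, and in 4 (Rplp1, Rps29, Rpl30 and Rpl34) both were above, against 19.2% and 20.1% of all genes. The biological coefficient of variation over the whole table was 0.442, against 0.0468 in mESCs. The members took 4.65 and 4.36% of all counts with DMSO and 4.24 and 4.14% with SGC0946.

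The member with the lowest p was Rpl10, at 593 and 594 CPM with DMSO and 408 and 364 CPM with SGC0946. The libraries did not overlap, but the adjusted p missed the threshold (log2 fold change −0.62, SE 0.12, edgeR unadjusted p = 0.000124, adjusted p = 0.203). DESeq2 (adjusted p = 0.000332) and limma-voom (adjusted p = 0.00568) both called it. Rpl3, which helps to build the peptidyl transferase centre, was at 1015 and 976 CPM with DMSO and 679 and 775 CPM with SGC0946 (−0.45, SE 0.11, edgeR adjusted p = 0.289). Rpl7 was at 1181 and 1198 CPM against 879 and 927 CPM (−0.40, SE 0.10, edgeR adjusted p = 0.332). Rps3, which sits at the entry of the messenger RNA channel, was at 1086 and 1031 CPM against 808 and 824 CPM (−0.38, SE 0.10, edgeR adjusted p = 0.347). Rps26 was at 726 and 695 CPM against 534 and 547 CPM (−0.39, SE 0.11, edgeR adjusted p = 0.353). None of these 5 overlapped between the groups.

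**Figure D4:**
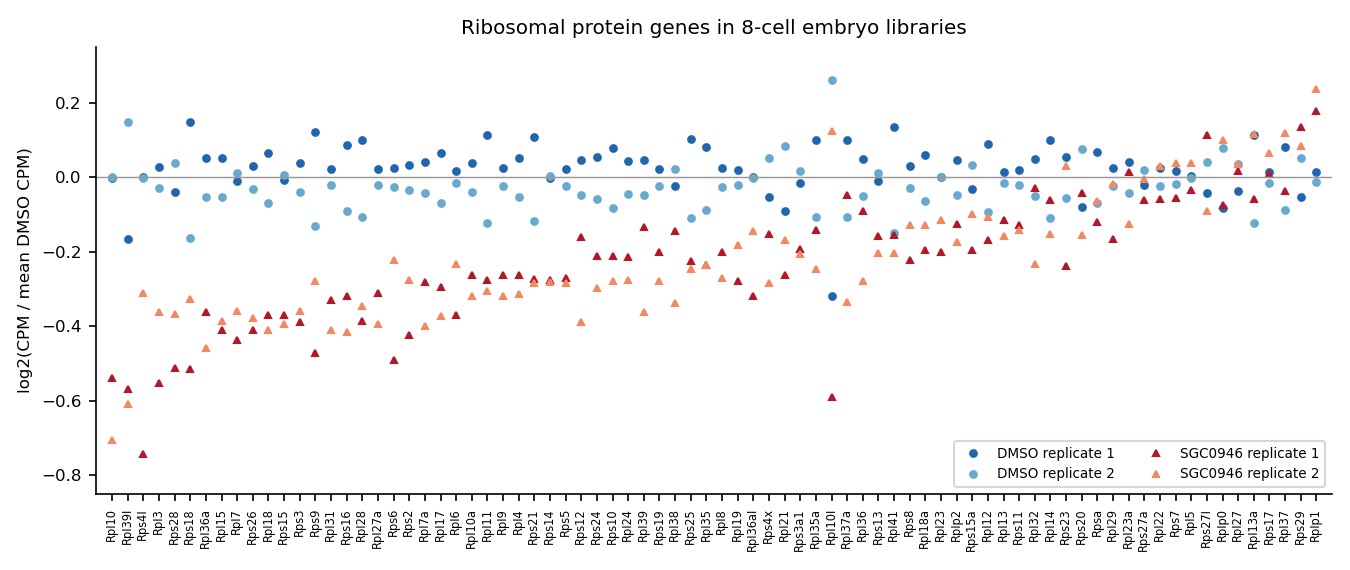
Level of 78 members with a mean of at least 10 CPM with DMSO, in each of the 2 DMSO and 2 SGC0946 embryo libraries. Points give log2 of CPM over the member's mean with DMSO, and the line at 0 marks that mean. Most members lie below 0 in both SGC0946 libraries.

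The other X-linked members were also lower in the embryos, without passing the test. Rpl36a was at 411 and 383 CPM with DMSO and 309 and 289 CPM with SGC0946 (−0.41, edgeR adjusted p = 0.385). Rpl39 was at 176 and 165 CPM against 155 and 133 CPM (−0.24), and Rps4x at 614 and 660.3 CPM against 573 and 524 CPM (−0.22). All 4 X-linked members had lower levels in both SGC0946 libraries. Over chromosome X as a whole in embryos, 45.2% of 378 X-linked genes at 1 CPM or more were lower and their median was 0.04.

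Of the copies, Rps4l was at 188 and 187 CPM with DMSO and 112 and 151 CPM with SGC0946 (−0.51, edgeR adjusted p = 0.396). With a library left out its value ran from −0.74 to −0.31, and it was called without SGC0946 replicate 2 (edgeR adjusted p = 0.0103). Rpl39l was at 29.5 and 36.7 CPM against 22.3 and 21.7 CPM (−0.59, edgeR adjusted p = 0.576). Both lay below the range of the DMSO libraries, whereas Rpl10l overlapped, at 60.9 and 91.1 CPM against 50.5 and 82.9 CPM. Rpl36al was at 225 and 225 CPM against 180.1 and 203 CPM (−0.23), and Rps27l overlapped at 47.3 and 50.2 CPM against 52.8 and 45.8 CPM. Rpl3l was at most 2.02 CPM.

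Among the stalk proteins no common direction was seen, and none passed the test. Rplp1 was higher in both SGC0946 libraries, at 1365 and 1421 CPM against 1217 and 1196 CPM (0.21, SE 0.10, edgeR adjusted p = 0.624). Rplp0 overlapped, at 939.7 and 1051 CPM with DMSO and 946 and 1068 CPM with SGC0946, as did Rpsa at 1105 and 1005 CPM against 971 and 1008 CPM. Rplp2 was at 1066 and 1001 CPM against 948 and 917 CPM (−0.15). Rpl13a, which rose in KO mESCs, overlapped at 1099 and 934 CPM against 976 and 1102 CPM.

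Of the genes of Mdm2 binding and anaemia, Rpl5 overlapped, at 868 and 865 CPM with DMSO and 847 and 890.4 CPM with SGC0946. Rpl11 was at 569.6 and 484 CPM against 435 and 426 CPM (−0.29). Rps24 was at 1148 and 1061 CPM against 953 and 899 CPM (−0.25), Rps19 at 404 and 391 CPM against 346 and 328 CPM (−0.24), and Rps14 at 300.1 and 301 CPM against 248 and 248 CPM (−0.28). These 4 were lower in both SGC0946 libraries, and edgeR's adjusted p was at least 0.559 for each.

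A few members were close to absent from the embryo table while abundant in mESCs. Rpl26 had 0 and 1 counts with DMSO and 0 and 0 with SGC0946, against 14845 to 18902 estimated counts per mESC library. Rpl34 had 62 and 65 counts with DMSO and 72 and 120 with SGC0946, Rpl30 72 and 92 against 143 and 136, and Rps27 115 and 129 against 113 and 83. In mESCs Rpl34 had 3694 to 4962, Rpl30 7772 to 11020 and Rps27 7357 to 10043 estimated counts per library. Each encodes a protein of the cytosolic ribosome, and levels between the tables are set apart by kit, counting and normalization. Why these counts are low was not tested, and the rises of Rpl30 and Rpl34 rest on them.

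The other lists of the translation machinery also had negative medians in embryos and no call by edgeR. The medians were −0.12 for 33 initiation factors, −0.14 for 60 ribosome assembly factors, −0.12 for 14 members of the RNA polymerase I list, −0.08 for 9 elongation and termination factors, −0.05 for 12 other TOP mRNAs and −0.05 for 77 mitochondrial ribosomal proteins, all nearer to 0 than the members' −0.23. At an edgeR unadjusted p under 0.05 there were 2, 6, 1, 2, 2 and 3 of these, against 8.15% of all genes tested. The initiation, RNA polymerase I and mitochondrial lists lay below that share. Among the genes under that unadjusted p, Eef1g and Eef2 were the ones in both the elongation and the TOP list. DESeq2 called 0 genes of these lists, and limma-voom called Eef2 alone.

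The mESC and embryo comparisons share no library, so their values can be set side by side. Among the 82 members tested in both, 66 had a negative log2 fold change in both. Of the 48 that fell in KO mESCs, 33 (68.8%) were also lower without overlap in SGC0946 embryos, and these 33 were 57.9% of the 57 lower there. Both shares are close to those of all 82 members, of which 69.5% were lower without overlap in embryos and 58.5% fell in mESCs. Over all 12380 genes tested in both tables, 711 were in both classes, 23.1% of the 3076 that fell in mESCs and 29.0% of the 2452 lower in embryos. Rpl10, Rpl36a, Rpl39 and Rps4x were lower in both, by 0.86 to 1.01 on the log2 scale in mESCs and by 0.22 to 0.62 in embryos.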

How the data were processed

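Members and gene lists were chosen with earlier results of these data known. The authors deposited estimated counts per gene for mESCs and read counts per gene for embryos, with kallisto, STAR and HTSeq named in the submitters' processing notes without versions. Their peak lists name Bowtie2 and MACS2 there, with mm10 as the build. The deposited lists give each peak's score, fold (a ratio over background) and −log10 p and q, and whether the input library listed beside each ChIP library was the control is not given in the sources used here. Input libraries were not used. Estimated counts were rounded. Rows without a symbol (69, at most 0.0163% of counts) were left out. Replicates differed beyond sampling noise (chi-square per degree of freedom 2.13 to 33.4), so none was merged.

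Each whole table was fitted with edgeR 4.0.16 in R 4.3.3 (filterByExpr, TMM, quasi-likelihood test, Benjamini-Hochberg, adjusted p under 0.05), 3 WT against 2 KO and 2 DMSO against 2 SGC0946. DESeq2 1.42.0 and limma-voom (limma 3.58.1) were alternatives. Fits were tested on simulated data. A single exact permutation test could not go below p = 0.2 or 0.333 in these designs and was not used. A peak counted when it touched a gene body of RefSeq GRCm38.p6 by 1 bp. RefSeq matched 84.7% of mESC and 93.7% of embryo symbols.

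Named members were the largest called changes or lowest p (at most 5 each way, at least 1 CPM), the stalk proteins and Rpsa, copies with their parents, X-linked members, Rpl5, Rpl11, Rps19, Rps24, Rps26 and Rps14, and the peak extremes. The part of the rule on levels per length could not be applied, since no transcript lengths were used here, so levels are not compared between genes. Rpl36, Rps20, Rps13, Rps7, Rps29, Rpl30, Rpl34, and Rpl26 were named after their values were seen, and the printed TOP examples were picked for their tracts. Alternatives covered scaling, tool, filter, a fold threshold, autosomes, pseudogene rows, the replicate block and each library left out.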

Additional observations from a re-analysis of the deposited data

How the results depend on the processing

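The count of 49 called members in mESCs was 33 to 61 with other scalings, tools and filters, where 31.9 to 46.4% of all genes were called. With a WT library left out it was 35 to 41, where 37.1 to 38.6% of all genes were called. It was 6, all lower, when the test asked for a change beyond 0.5 on the log2 scale. That test called 9.6% of all genes, so the members did not exceed the share of all genes there. The size of the small falls in mESCs varied with the KO library kept. The members' median was −0.104 without KO replicate 1 and −0.166 without KO replicate 2, against −0.128 with both. Rpl10, Rpl10l, Rpl36a, Rpl39, Rpl39l and Rps4x were called lower in every alternative that tested them. In embryos, 0 members by edgeR became 6 with DESeq2, 3 with limma-voom, 2 with no filter, 1 with at least 10 counts in every library and 0 to 9 with a library left out, where 0.878, 0.383, 0.613, 0.191 and 0.026 to 2.39% of all genes were called. The 9 came without SGC0946 replicate 2 and the 1 without SGC0946 replicate 1. Same-numbered replicates did not deviate together (correlations −0.011 to 0.0808). A fit with the replicate block called 49 members in mESCs, where 41.2% of all genes were called. In embryos it called 5 (Rpl10, Rpl3, Rpl7, Rps3 and Rps4l), where 1.19% of all genes were called. H3K79me3 was on 22 members when at least 50% of the body had to be covered, and on 69 to 81 otherwise (59 of 63 within 2 kb of the start), while H3K79me2 was on 70 to 80 (60 of 63). Among the named members, signs turned in some that edgeR had not called as reported above. In mESCs these were Rps24 (−0.00066 with DESeq2 or its size factors, −0.0078 with no filter, −0.012 with autosomal genes only, −0.0084 with the block, −0.092 to 0.088 with a library left out, and called lower at an edgeR adjusted p of 0.0496 without KO replicate 2), Rpl22 (0.062), Rpl3 (0.022), Rpl5 (0.060) and Rps19 (0.029) with upper-quartile scaling, Rpl22 with at least 10 counts (0.0012), Rps10 with autosomal genes only (−0.0016), and, with a library left out, Rpl22 (−0.080 to 0.063) and Rpl5 (−0.13 to 0.10). In embryos they were Rpl5 (−5.8e-05 with DESeq2's size factors, −4.4e-05 with DESeq2) and, with a library left out, Rpl22 (−0.057 to 0.035), Rplp0 (−0.073 to 0.11), Rps27l (−0.086 to 0.12), Rpl10l (−0.59 to 0.13), Rpl13a (−0.080 to 0.15), Rpl3l (−0.28 to 1.02) and Rpl5 (−0.033 to 0.043). The cause of these differences was not tested. Without a KO or embryo library its group has a single library, assumed to vary like the other group. With 2 or 3 libraries a group, small falls of single members are not firm.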
